A study of Mus musculus with 4 samples.

Results

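The mouse Hox genes were examined in cells differentiated from ES cells and sorted into a KSP-positive and a KSP-negative fraction. A probe set was taken as a member when it is assigned to 1 gene whose symbol is Hox with the letter of a cluster, a to d, and a paralog number. This rule uses names and no measured value. It gave 48 of the 34945 single-gene probe sets on the array, for 33 of the 39 Hox genes in the RefSeq gene table, out of 18193 genes with a probe set of their own. The clusters a, b, c and d were represented by 9, 9, 7 and 8 genes. The remaining Hox genes had no values of their own in the comparison, although a promoter or a shared probe set is given for some of them below. Of the 33 genes, 22 had a mean signal high enough to enter the test described below.

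The cells came from the mouse ES cell line EB3 of strain 129/Ola, carrying GFP under the ubiquitous CAG promoter, so every sample shares 1 line and its transgene. They were differentiated through embryoid bodies for 18 days with Activin at 10 ng/mL and sorted with an antibody against KSP (cadherin 16, encoded by Cdh16), a cadherin of kidney tubules. KSP-positive and KSP-negative cells, both GFP-positive, were each hybridized on 2 arrays from 2 independent experiments, and the array was an Affymetrix mouse genome array. The comparison asks what distinguishes the sorted cells from the remaining cells of the same cultures.

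Hox genes encode homeodomain transcription factors that lie side by side in clusters, where they are switched on in their physical order, and the combination a cell expresses records its position along the head-to-tail axis. Genes of low paralog number lie at the 3' end of a cluster and act in the hindbrain and neck, and genes of high number lie at the 5' end and act in the trunk, tail and distal limbs. The paralogs of groups 10 and 11 pattern the lumbar and sacral region, and those of group 11 are needed in the metanephric mesenchyme for outgrowth of the ureteric bud.

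The promoters of 4 genes on which the results below turn are shown first, each as the 250 bases before the RefSeq start on build GRCm38.p6, read 5' to 3' along the gene. Capitals mark matches to TGATNNAT on either strand, a sequence bound by Pbx and Hox proteins together. Hoxd1 is shown for the largest difference between the fractions, Hoxb1 and Hoxa2 as low-numbered genes with wide gaps between the KSP-negative replicates, and Hoxa11 because its promoter lies within an antisense transcript that differed by more than any Hox gene.
Hoxd1 promoter, chr2:74762730-74762979, plus strand: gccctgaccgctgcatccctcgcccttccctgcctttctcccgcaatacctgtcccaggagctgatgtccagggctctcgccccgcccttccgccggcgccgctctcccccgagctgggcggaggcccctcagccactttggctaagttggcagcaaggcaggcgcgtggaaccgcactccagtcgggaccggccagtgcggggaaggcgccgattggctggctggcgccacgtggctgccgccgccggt
Hoxb1 promoter, chr11:96365508-96365757, plus strand: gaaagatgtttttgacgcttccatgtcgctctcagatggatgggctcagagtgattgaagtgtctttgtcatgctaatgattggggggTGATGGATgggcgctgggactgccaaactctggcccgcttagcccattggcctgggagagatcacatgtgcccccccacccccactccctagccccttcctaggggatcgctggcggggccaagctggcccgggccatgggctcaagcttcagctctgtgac
Hoxa2 promoter, chr6:52164832-52165081, minus strand: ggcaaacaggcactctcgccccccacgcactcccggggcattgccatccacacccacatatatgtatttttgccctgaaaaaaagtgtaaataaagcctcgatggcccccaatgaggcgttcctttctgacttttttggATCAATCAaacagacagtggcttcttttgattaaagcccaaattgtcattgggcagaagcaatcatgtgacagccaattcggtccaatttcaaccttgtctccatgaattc
Hoxa11 promoter, chr6:52245811-52246060, minus strand: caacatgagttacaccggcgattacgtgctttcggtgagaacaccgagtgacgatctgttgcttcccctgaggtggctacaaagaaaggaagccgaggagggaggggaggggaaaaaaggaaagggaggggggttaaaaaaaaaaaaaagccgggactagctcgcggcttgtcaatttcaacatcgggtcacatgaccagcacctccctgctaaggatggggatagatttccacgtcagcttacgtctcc
The RefSeq promoter table had an entry for 22 Hox genes, with 24 promoters. Matches to TGATNNAT were found in 4 of them (Hoxa2, Hoxb1, Hoxb8 and Hoxd11), and in 7.68% of all 32851 promoters of this length. TGACAG, the Meis sequence, was found in 2 of the 24 and in 15.9% of all, and TTTATG, the Cdx sequence, in 5 and in 10.8% of all. TATAAA, the TATA box, was found in 4 and in 12.4% of all. Both strands were searched, and TTTATG and TATAAA can share letters where they meet. The median number of CpG dinucleotides was 12.5 in Hox promoters and 6 in all promoters, and the median GC content was 58.6% against 52.4%. These matches are letters in a window and were not tied to binding.

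Signals are given as log2 of values scaled to a common 75th percentile, in the order KSP-positive replicates 1 and 2, then KSP-negative replicates 1 and 2. Signals under 12.3 were raised to that floor, log2 3.62, at which nothing can be ranked. A signal depends on its probes, so levels are compared between arrays and never between genes. In these bulk samples, fewer cells expressing a gene and less RNA per cell cannot be told apart. The plot of Hox signals in the 4 arrays shows the brightest probe set of each gene.

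**Figure D1:**
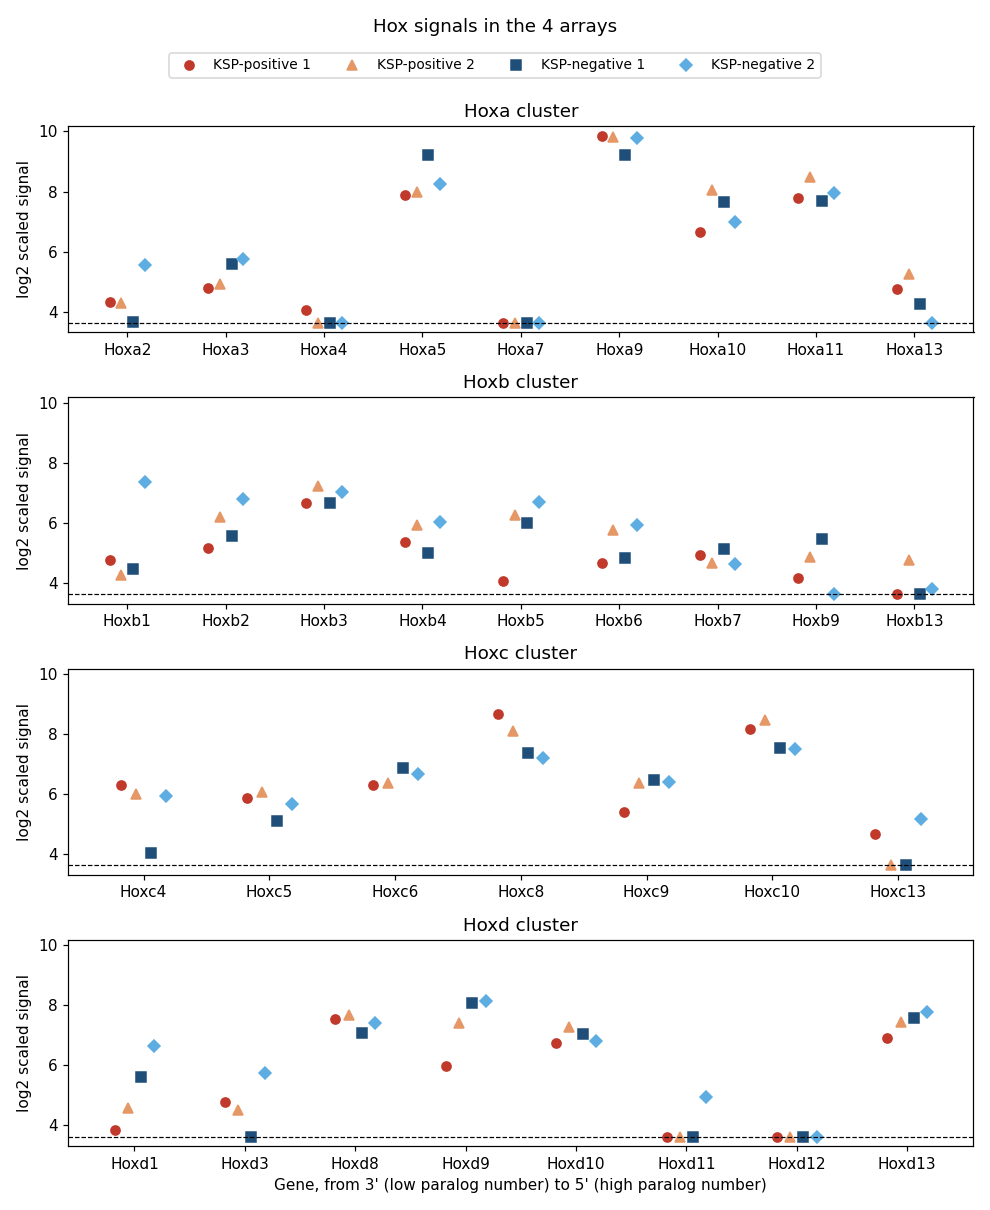
Log2 scaled signals of the 33 Hox genes by cluster, from low to high paralog number, with 1 point per array (circles and triangles, KSP-positive replicates 1 and 2; squares and diamonds, KSP-negative replicates 1 and 2) and a dashed line at the floor of 3.62. Hoxa7 and Hoxd12 lay on the floor in all 4 arrays, and the KSP-negative replicates lay far apart for Hoxb1, at 4.47 and 7.35.

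Signals above the filter were found for Hox genes of every cluster and from both ends of the clusters, in both fractions. At the 3' end, Hoxb2 and Hoxb3, which act in the hindbrain, passed the filter and had means above it in both fractions. In the middle, Hoxc6 and Hoxc8, genes of the thoracic region, passed it. At the 5' end, Hoxd13, a gene of the digits and the genital tubercle, had log2 signals of 6.91 and 7.42 in KSP-positive cells and of 7.58 and 7.77 in KSP-negative cells. These are from the brighter of its 2 probe sets. The other was at the floor in 3 arrays and at 3.86 in KSP-positive replicate 2, so the signal of Hoxd13 rests on 1 probe set. Among the genes with signals near the floor, Hoxa7 and Hoxd12 were at it in all 4 arrays, Hoxa4 and Hoxd11 in 3, Hoxb13 and Hoxc13 in 2, and Hoxa13, Hoxb9 and Hoxd3 in 1. Hoxa2 and Hoxb7 were above the floor in all arrays and under the filter. The Pearson correlation of log2 signals over the 33 genes was 0.921 between the KSP-positive replicates, 0.835 between the KSP-negative replicates and from 0.795 to 0.916 between arrays of different fractions. These are correlations across genes that share the probes' own brightness, and genes are not independent replicates.

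No Hox gene differed between the fractions at an adjusted p under 0.05 in limma, in either direction, among the 22 tested, where 3.49% of all 12849 genes tested passed. That share stands for 448 genes, and the count was 124 when KSP-negative replicate 2 was dropped and 792 when KSP-positive replicate 2 was dropped. The adjusted p of the Hox genes ran from 0.121 for Hoxd1 to 0.991 for Hoxa10. At an unadjusted p under 0.05, 4 Hox genes passed (Hoxd1, Hoxd9, Hoxc8 and Hoxc10), against 17.8% of all genes tested, which is close to their share. Higher means in KSP-positive cells were found for 11 of the 22 genes and lower means for 11. Without overlap between the fractions, 6 were higher, where 24.4% of all genes were, and 7 were lower, where 24.6% were. More than 2-fold and without overlap, 2 were higher (Hoxc4 and Hoxc8), against 7.6% of all genes, and 2 were lower (Hoxd1 and Hoxd9), against 7.26%. Over all 33 genes without the filter, 3 were higher by that rule, against 6.57% of 18193 genes, and 2 were lower, against 6.61%. The median difference, KSP-positive minus KSP-negative, was -0.03 over the 33 Hox genes and 0.00 over all genes. The median size of the difference, whatever its sign, was 0.53 for the 22 Hox genes and 0.42 for all genes tested, and their median standard errors were 0.49 and 0.40. A miss at this threshold with 2 arrays a fraction does not show that the Hox genes were equal.

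**Figure D2:**
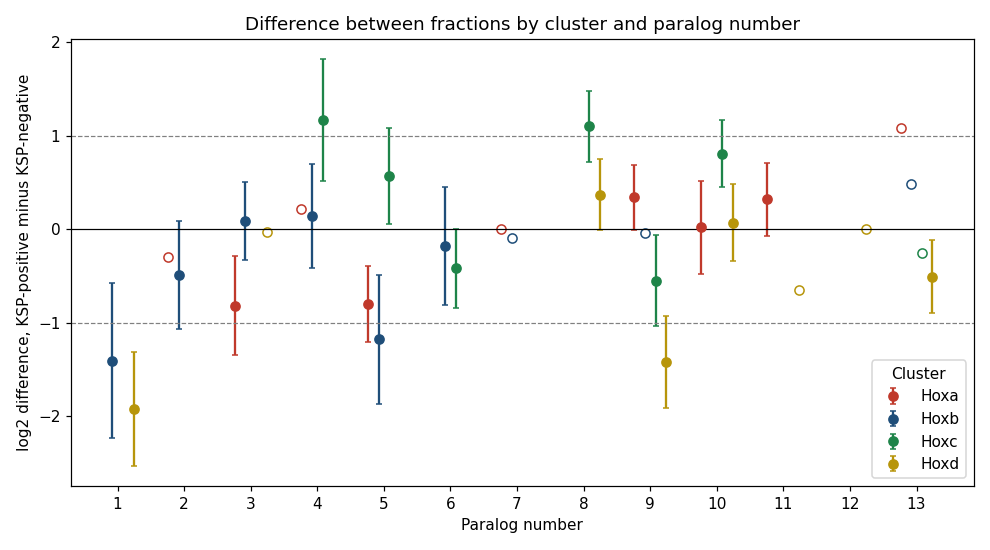
Difference of mean log2 signal, KSP-positive minus KSP-negative, against paralog number, colored by cluster; filled points are the 22 tested genes with the standard error of limma as bars, open points are the 11 genes under the filter, and dashed lines mark 2-fold. The lowest points are Hoxd1 at -1.92 and Hoxd9 at -1.42, and the highest are Hoxc4 at 1.17 and Hoxc8 at 1.10.

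Hoxd1, the gene at the 3' end of cluster d, had the lowest adjusted p of the 22 Hox genes tested. It lies at chr2:74762980-74765142, Entrez ID 15429. Its log2 signals were 3.83 and 4.58 in KSP-positive cells and 5.61 and 6.65 in KSP-negative cells. Both KSP-positive arrays were below both KSP-negative arrays, and the lower of them was just above the floor. The means were 4.21 ± 0.53 and 6.13 ± 0.73 (SD, n = 2), a difference of -1.92 with a standard error of 0.61 and a 95% interval from -3.26 to -0.58, or 3.78-fold. The gene passed the filter of 5.14 through the KSP-negative arrays, since its KSP-positive mean is below it. The adjusted p was 0.121. It was 0.0319 with unscaled values and 0.0493 when KSP-positive replicate 2 was dropped, but 0.322 when KSP-positive replicate 1 was dropped (difference -1.54), 0.495 when KSP-negative replicate 2 was dropped (-1.40), 0.38 with no filter and 0.533 by the methods' t-test. With the floor at the 40th percentile the difference was -0.91.

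Hoxd9, a gene of the posterior trunk and hindlimb, lies at chr2:74697763-74700208, Entrez ID 15438. Its log2 signals were 5.96 and 7.39 in KSP-positive cells and 8.06 and 8.13 in KSP-negative cells. The KSP-negative arrays lay close together, and the KSP-positive arrays lay below them and apart from each other. The difference was -1.42 with a standard error of 0.49 and an interval from -2.49 to -0.35, or 2.67-fold (adjusted p = 0.149 in limma). Without KSP-positive replicate 2 the difference was -2.13 and the adjusted p 0.00809, and without KSP-positive replicate 1 they were -0.70 and 0.769.

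The larger positive differences were found in cluster c. Hoxc8, a gene of the lower thoracic region, lies at chr15:102990539-102994275, Entrez ID 15426. Its log2 signals were 8.65 and 8.11 in KSP-positive cells and 7.35 and 7.21 in KSP-negative cells. The fractions did not overlap, and the difference exceeded the gap within either. It was 1.10 with a standard error of 0.38 and an interval from 0.26 to 1.94, or 2.14-fold (adjusted p = 0.152 in limma). Hoxc4, a gene of the neck region, lies at chr15:103018097-103036856, Entrez ID 15423, and had log2 signals of 6.28 and 6.0 in KSP-positive cells and of 4.03 and 5.92 in KSP-negative cells. It passed the filter through the KSP-positive arrays. Only KSP-negative replicate 1 was low, and KSP-negative replicate 2 was close to the nearest KSP-positive array. The difference was 1.17 with a standard error of 0.65 (adjusted p = 0.387), and it shrank to 0.22 when KSP-negative replicate 1 was dropped. Hoxa13, a gene of the distal limb and the cloacal region, was under the filter with log2 signals of 4.77 and 5.25 in KSP-positive cells and of 4.24 and 3.62 in KSP-negative cells, the last at the floor. It had no test, and its difference of 1.08 depends on the floor.

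The paralogs of groups 10 and 11, the Hox genes best known from kidney development, were within 2-fold between the fractions where the test covered them. Hoxc10 (chr15:102966796-102971898, Entrez ID 209448) had log2 signals of 8.16 and 8.47 in KSP-positive cells and of 7.53 and 7.48 in KSP-negative cells. It was the member of these groups with a gap between the fractions, of 0.81 with a standard error of 0.36 and an interval from 0.00 to 1.61, or 1.75-fold (adjusted p = 0.278). Hoxa10 (chr6:52231197-52240854, Entrez ID 15395) had log2 signals of 6.64 and 8.04 in KSP-positive cells and of 7.64 and 7.00 in KSP-negative cells. The KSP-positive arrays enclosed the KSP-negative ones, with a difference of 0.02 and an interval from -1.09 to 1.13 (adjusted p = 0.991). Hoxd10 (chr2:74684273-74695106, Entrez ID 15430) had log2 signals of 6.74 and 7.25 in KSP-positive cells and of 7.04 and 6.81 in KSP-negative cells. Its fractions overlapped too, with a difference of 0.07 and an interval from -0.84 to 0.98 (adjusted p = 0.956).
Hoxa11 (chr6:52242105-52245810, Entrez ID 15396) had log2 signals of 7.80 and 8.48 in KSP-positive cells and of 7.70 and 7.94 in KSP-negative cells. KSP-negative replicate 2 was above KSP-positive replicate 1, and the difference was 0.32 with an interval from -0.54 to 1.18 (adjusted p = 0.731). Hoxd11 (chr2:74679558-74687016, Entrez ID 15431) was at the floor in 3 arrays and at 4.92 in KSP-negative replicate 2, so it was not tested. A rise of nearly 2-fold lies inside the intervals of Hoxa10, Hoxa11 and Hoxd10.

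The antisense transcript of Hoxa11 had a larger difference than its sense partner, a contrast that was not itself tested. Hoxa11os, a long noncoding RNA read from the opposite strand, lies at chr6:52245243-52249769 and overlaps Hoxa11 by 568 bases, from 52245243 to 52245810, and the promoter of Hoxa11 printed above lies within it. One of its probe sets had log2 signals of 7.61 and 7.85 in KSP-positive cells and of 6.16 and 3.86 in KSP-negative cells. Both KSP-positive arrays were above both KSP-negative arrays, which lay 2.30 apart. The difference was 2.72 with a standard error of 0.66 and an interval from 1.26 to 4.17, or 6.57-fold. This probe set passed the filter through the KSP-positive arrays, since its KSP-negative mean of 5.01 is below the filter. The adjusted p was 0.0509, just over the threshold. It was under the threshold at 0.00113 when the arrays were left unscaled, and at 0.0105 when replicates were blocked by number. It was over the threshold at 0.433 with no filter and at 0.575 by the methods' t-test. When KSP-negative replicate 2 was dropped, the difference was 1.56 and the adjusted p 0.222. The other probe set of Hoxa11os was at the floor in all 4 arrays. Probe positions were not used here, so the strand each probe set reads was not checked. The other noncoding RNAs inside the clusters with a test had differences of 0.17 for Gm15050, -0.43 for Hoxb5os and -0.59 for Hoxd3os1, with adjusted p from 0.583 to 0.908 in limma.

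By cluster, the median difference was 0.02 over the 9 genes of cluster a, -0.09 over the 9 of cluster b, 0.57 over the 7 of cluster c and -0.27 over the 8 of cluster d. In cluster c, 4 of 7 genes had higher means in KSP-positive cells (Hoxc4, Hoxc5, Hoxc8 and Hoxc10), and Hoxc6, Hoxc9 and Hoxc13 had lower ones. In cluster b no gene was without overlap between the fractions by its brightest probe set. Of all genes tested, 24.4% were higher without overlap and 24.6% lower. The other probe sets of Hoxb3 and Hoxb4 were lower without overlap, at -1.09 and, under the filter, at -0.56. By position in the cluster, the median difference was -0.49 over the 7 genes of paralog groups 1 to 3, 0.07 over the 12 of groups 4 to 8 and 0.01 over the 14 of groups 9 to 13. Of the 7 genes at the 3' end, 6 had lower means in KSP-positive cells and Hoxb3 a higher one, by 0.09. This direction rested on KSP-negative replicate 2. When that array was dropped, 2 of the 7 were lower (Hoxa3 and Hoxd1), 5 were higher, and the median difference was 0.12. Neighbouring genes of a cluster share their regulation and are not independent. Spearman's correlation of paralog number with the difference was 0.29 over the 33 genes, a weak relation given here as a description, across genes that share the arrays.

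Of the remaining tested genes, Hoxb5 had log2 signals of 4.07 and 6.25 in KSP-positive cells and of 6.0 and 6.69 in KSP-negative cells, with a difference of -1.18 (adjusted p = 0.413). That difference rested on 1 array, as it was -2.27 without KSP-positive replicate 2 (adjusted p = 0.0375) and -0.09 without KSP-positive replicate 1. The differences of Hoxa3, Hoxa5, Hoxa9, Hoxb2, Hoxb3, Hoxb4, Hoxb6, Hoxc5, Hoxc6, Hoxc9, Hoxd8 and Hoxd13 ran from -0.82 for Hoxa3 to 0.57 for Hoxc5. Those of the 10 genes under the filter other than Hoxa13 ran from -0.65 for Hoxd11 to 0.48 for Hoxb13.

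Of 11 Hox genes with several probe sets, 8 had probe sets that differed in sign. For Hoxa5, Hoxb3 and Hoxd8 these were probe sets past the filter. For Hoxa3, Hoxb4, Hoxc5, Hoxc6 and Hoxd13 the opposite sign came only from a probe set under the filter, with at least 1 array at the floor. For Hoxa5, which acts in the lung and the neck vertebrae, the brighter probe set gave -0.80 and the other 0.55. For Hoxb3 they gave 0.09 and -1.09, and for Hoxa3, which acts in the pharyngeal pouches, the 4 probe sets gave -0.82, -0.42, 0.00 and 1.03. The last 2 of Hoxa3 were under the filter, and the one at 0.00 was at the floor in all 4 arrays. The direction of these genes is therefore not settled by the array. A probe set shared by Hoxb7 and Hoxb8 had log2 signals of 4.35 and 4.73 in KSP-positive cells and of 5.54 and 5.99 in KSP-negative cells. It was lower in both KSP-positive arrays, by 1.22 in the mean, and cannot be given to either gene.

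The KSP-negative replicates differed from each other in the genes of low paralog number, a pattern noticed after the values were seen. Hoxb1, which sets the identity of a hindbrain segment, lies at chr11:96365746-96368254, Entrez ID 15407. Its log2 signals were 4.75 and 4.25 in KSP-positive cells and 4.47 and 7.35 in KSP-negative cells. The high value is that of KSP-negative replicate 2 alone. Hoxb1 passed the filter through KSP-negative replicate 2, since its KSP-positive mean of 4.5 and its signal in KSP-negative replicate 1 are below the filter. The difference between the fractions was -1.41 (adjusted p = 0.415 in limma). It was -2.85 without KSP-negative replicate 1 and 0.03 if KSP-negative replicate 2 was dropped instead. In KSP-negative cells, replicate 2 was more than 2-fold above replicate 1 for 5 of the 7 genes of groups 1 to 3. These log2 gaps were 2.88 for Hoxb1, 2.11 for Hoxd3, 1.89 for Hoxa2, 1.23 for Hoxb2 and 1.04 for Hoxd1. Hoxd3 and Hoxa2 were under the filter, with KSP-negative replicate 1 at the floor for Hoxd3 and at 3.66 for Hoxa2, so the sizes of their gaps depend on the floor. The same held for 3 of 12 genes of groups 4 to 8 and for 2 of 14 of groups 9 to 13, or 10 of all 33, where 9.84% of all genes did so. In KSP-positive cells, replicate 2 was more than 2-fold above replicate 1 for 1 of the 7 genes of groups 1 to 3 and for 6 of all 33, against 5.23% of all genes. The share of genes with such a gap in KSP-negative cells was thus 71.4% at the 3' ends, 25.0% in the middle and 14.3% at the 5' ends. No test was made of them, since each fraction has a single pair of arrays and the genes of a cluster are not independent.
KSP-negative replicate 2 also had the highest ratio of 3' to 5' actin signal, 3.55, against 1.79 in KSP-negative replicate 1, and 2.92 and 1.80 in KSP-positive replicates 1 and 2. The same ratio for Gapdh was highest in KSP-positive replicate 1, at 3.11, and was 2.72 in KSP-negative replicate 2, 2.02 in KSP-negative replicate 1 and 1.86 in KSP-positive replicate 2. Its summed signal over the 12 pluripotency markers was 30171, against 17396 in KSP-negative replicate 1, and over the 10 neural markers on the array it was 1737 against 1284. Sox1, an early neural gene under the filter, had log2 signals of 4.23 and 6.68 in KSP-negative replicates 1 and 2. Its rise of 2.45 was the largest of the 10 neural markers. Dcx rose by 2.21, but Nes and Stmn2 changed by 0.02 and 0.08 and Sox3 by -0.08. The part of RNA quality and of other cells in the Hox gaps was not tested. Within the arrays of high actin ratio (KSP-positive 1 minus KSP-negative 2) and of low ratio (KSP-positive 2 minus KSP-negative 1), the log2 differences were -2.81 and -1.03 for Hoxd1, -2.17 and -0.67 for Hoxd9, 1.44 and 0.76 for Hoxc8, and 0.68 and 0.94 for Hoxc10. These 4 genes have no overlap between the fractions, so their sign is fixed in any such pair and only the sizes can vary.

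**Figure D3:**
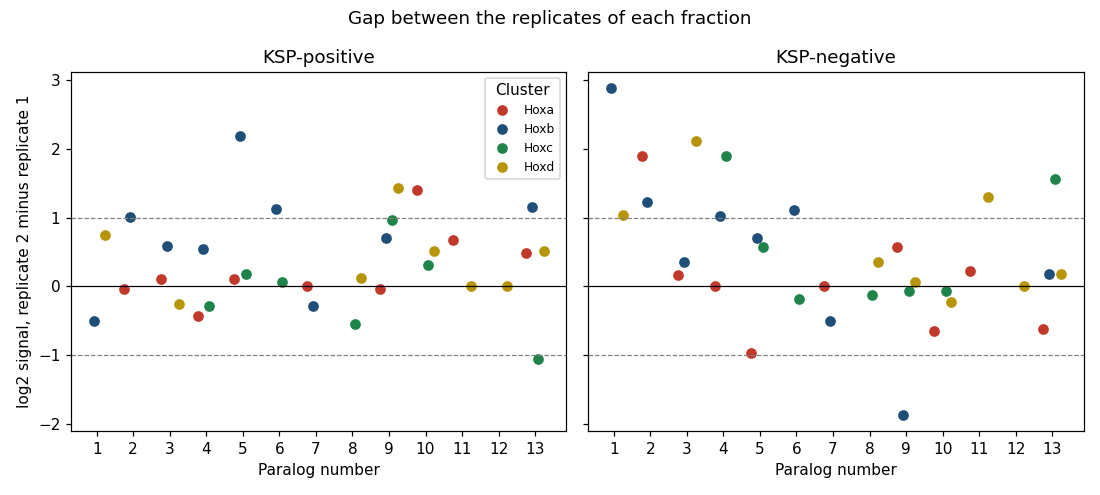
Gap between the replicates of each fraction, log2 signal of replicate 2 minus replicate 1, against paralog number, with 1 point per Hox gene colored by cluster and dashed lines at 2-fold. In KSP-negative cells (right) the 7 genes of groups 1 to 3 are all above 0, from 0.17 to 2.88, and in KSP-positive cells (left) they run from -0.50 to 1.01.

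Hox proteins bind DNA with cofactors of the Pbx, Meis and Prep families. Of the 7 cofactors tested, none passed the threshold. Their differences ran from 0.35 for Pbx2 to 0.78 for Pknox2, with a median of 0.65, where the median of all genes tested was -0.03. Pknox2, a Prep protein, had log2 signals of 8.61 and 8.48 in KSP-positive cells and of 7.77 and 7.76 in KSP-negative cells (difference 0.78, adjusted p = 0.283). Pbx3 differed by 0.77 (adjusted p = 0.296), Meis1 by 0.65 (adjusted p = 0.393) and Meis3 by 0.68 (adjusted p = 0.476).

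Among genes that regulate the clusters, Cdx2 and Cyp26a1 were lower in KSP-positive cells past the threshold. Cdx2, a caudal homeobox factor that acts on Hox genes in the posterior embryo, had log2 signals of 6.21 and 6.96 in KSP-positive cells and of 8.14 and 8.80 in KSP-negative cells. It was lower in both KSP-positive arrays, by 1.89 on the log2 scale in the mean (standard error 0.43, adjusted p = 0.0391 in limma), and its adjusted p missed the threshold when KSP-positive replicate 1 (0.139) or KSP-negative replicate 2 (0.252) was dropped. It was the only gene that passed of the 14 tested in the list of Cdx, Evx and neighbouring genes, of which Evx1, next to cluster a, differed by -0.94 (adjusted p = 0.313) and Snx10 and Skap2, which lie beyond it, by -0.99 and -0.77 (adjusted p = 0.178 and 0.346). Outside the list, Calcoco2, an autophagy receptor gene within 100 kb of cluster b, had log2 signals of 3.62 and 4.04 in KSP-positive cells and of 5.90 and 7.04 in KSP-negative cells. The first of these is at the floor, and the difference was -2.65 (adjusted p = 0.0398 in limma). Calcoco2 passed the filter through the KSP-negative arrays, since its KSP-positive mean of 3.83 is below the filter.
Cyp26a1, the enzyme that breaks down retinoic acid, had log2 signals of 7.20 and 7.90 in KSP-positive cells and of 9.87 and 10.94 in KSP-negative cells. Its fall by 2.85 on the log2 scale (standard error 0.44, adjusted p = 0.00821) was the only one to pass of 15 genes of retinoic acid metabolism and reception. Without KSP-negative replicate 2 it was -2.32 (adjusted p = 0.0513). In the same list, the receptor gene Rarb differed by 1.72 (adjusted p = 0.0952), the retinaldehyde reductase gene Dhrs3 by 1.21 (adjusted p = 0.126) and Crabp2, which carries retinoic acid in the cell, by -1.38 (adjusted p = 0.125).
Of 28 genes of the Polycomb and Trithorax groups, which keep Hox genes silent or active, none passed, and their median difference was -0.10. The lowest adjusted p was 0.106 for Phc1 (difference -1.37), followed by Suz12 (-1.04, adjusted p = 0.117), Ash2l (-1.19, adjusted p = 0.139) and Pcgf6 (-0.98, adjusted p = 0.200).

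**Figure D4:**
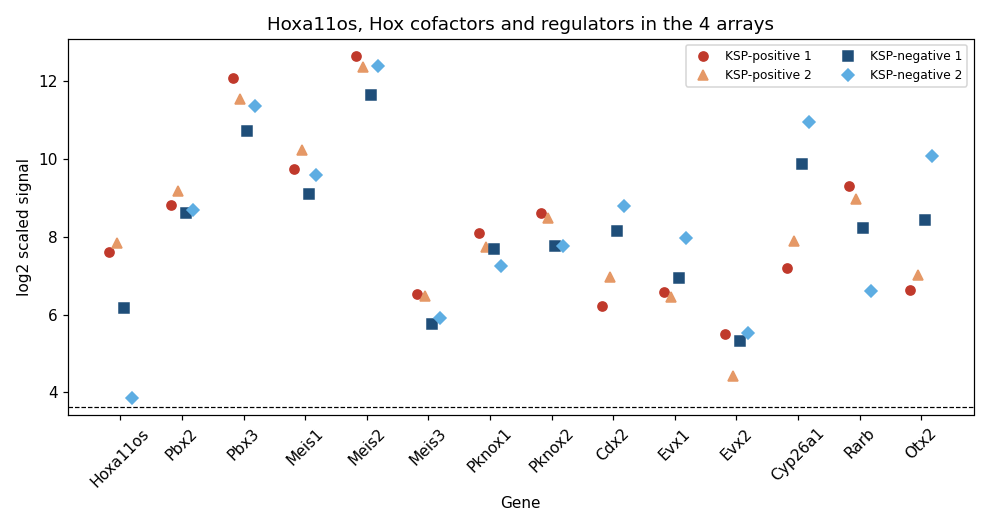
Log2 scaled signals of Hoxa11os, Hox cofactors and regulators in the 4 arrays, with 1 point per array and a dashed line at the floor of 3.62. Cyp26a1, Cdx2 and Otx2 lie lower in the KSP-positive arrays with no overlap, and Hoxa11os lies higher, with KSP-negative replicate 2 at 3.86.

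Genes that mark other axial levels and the tissues in which Hox genes act were read from lists. In the head and rostral brain, where Hox genes are silent, 6 of 19 listed genes on the array passed the filter. Of these, 1 was lower in KSP-positive cells past the threshold. Otx2, which patterns the forebrain and midbrain and is also expressed in pluripotent cells, had log2 signals of 6.62 and 7.03 in KSP-positive cells and of 8.43 and 10.09 in KSP-negative cells, a difference of -2.43 (standard error 0.51, adjusted p = 0.0293). Without KSP-negative replicate 2 it was -1.61 (adjusted p = 0.206). The others with the lowest p in that list were Lhx2 (1.32, adjusted p = 0.332), Vax1 (-0.71, adjusted p = 0.532) and Emx2 (-0.29, adjusted p = 0.838).
None of 6 genes tested in the hindbrain segment list passed, among them Egr2 (0.93, adjusted p = 0.146) and Fgf3 (-1.27, adjusted p = 0.188). The list also held the teashirt genes Tshz1 (1.52, adjusted p = 0.0606) and Tshz3 (0.94, adjusted p = 0.263), which are not specific to the hindbrain. None of 12 partners and targets of Hox11 proteins in the metanephric mesenchyme passed, with a median difference of -0.08. In that list Sall1 and Six4, transcription factors of the nephrogenic mesenchyme, differed by -1.85 (adjusted p = 0.0629) and -1.24 (adjusted p = 0.131), Itga8, its integrin chain, by 1.22 (adjusted p = 0.0737), and Six2, a factor of nephron progenitors, by -0.91 (adjusted p = 0.303).
None of 17 genes of the limb bud and lateral plate passed, with a median difference of 0.70. They included Twist2 (1.26, adjusted p = 0.0758), the forelimb gene Tbx5 (2.35, adjusted p = 0.098), Tbx3 (-1.34, adjusted p = 0.0993) and Hand2 (1.0, adjusted p = 0.139). In the 8 lists together, 3 of 105 genes tested passed, beside 3.49% of all genes tested.

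Markers of several cell types moved with the fractions. Those counted as higher or lower had an adjusted p under 0.05 in limma, as 3.49% of all genes tested did. Of 12 macrophage markers tested, 11 were higher in KSP-positive cells, with summed signals of 22511 and 10326 against 1656 and 1604. C1qa, C1qc and Fcgr1 passed the filter through the KSP-positive arrays. Of 13 mesenchyme markers 6 were higher and 7 did not pass, with sums of 84162 and 61845 against 39905 and 23687. The median difference of the 13 was 1.81. Of 12 pluripotency markers 11 were lower in KSP-positive cells, with sums of 8003 and 8716 against 17396 and 30171. The median difference of the 12 was -3.4. Klf4, the marker that did not pass, differed by 0.35. Its log2 signals of 12.68 and 12.77 in KSP-positive cells make up most of the sums there. Nanog and Utf1 passed the filter through the KSP-negative arrays. Of 8 neural markers tested 1 was lower (Stmn2) and 7 did not pass, with a median difference of -0.63 over the 8. Of 6 kidney epithelium markers tested 3 were lower (Lhx1, Epcam and Cdh1). Lrp2, with a difference of -1.30, and Aqp1, with 1.07, did not pass. Umod and Slc12a3 were at the floor in all arrays. Cdh16 itself, the gene of the sorted protein, had log2 signals of 5.66 and 5.03 in KSP-positive cells and of 5.30 and 4.71 in KSP-negative cells, which overlapped. The part of these cell types in the Hox, cofactor and regulator differences was not tested.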

How the data were processed

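RNA from 2 KSP-positive and 2 KSP-negative samples was measured on Affymetrix arrays. The authors deposited linear MAS5 signal intensities, 1 value for each probe set on an array, and the standardization in GeneSpring that the paper names was not repeated. Arrays were brought to 1 shared 75th percentile (a signal of 281), floored at the 20th percentile of all values (12.3) and taken to log2. The brightest single-gene probe set represented each gene, and genes with a mean log2 signal over 5.14, the 40th percentile, were tested (12849 genes). Precision is limited by the number of arrays.

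The test was limma 3.58.1 under R 4.3.3, two-sided, on group means, with intensity-trended empirical Bayes and Benjamini-Hochberg adjustment over all genes tested. An exact permutation of 2 against 2 arrays cannot go below p = 0.333, and none was used. No source ties the replicate numbers to the 2 experiments. The p-values set each difference against the spread between arrays of a fraction, which limma draws toward that of genes with similar signal. Coordinates and promoters are from RefSeq (GRCm38.p6), and figures were drawn with matplotlib 3.10.9.

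The Hox genes, the lists, written from general knowledge, and the tests were chosen with earlier results of these data known. Values in every array are given for Hox genes past an adjusted p of 0.05 or over 2-fold without overlap and for paralog groups 10 and 11, and of each list for up to 4 genes with the lowest p and each gene past the threshold. Hoxb1, Hoxb5, Hoxd13, Hoxa11os, the shared probe set, Sox1 and the genes with opposite probe sets were chosen after their values were seen. Alternatives were other scalings, floors, filters and probe set rules, other variance settings, a replicate block, the methods' t-test, and fits with 1 array dropped, in which a lone array is assumed to have the spread of the other fraction.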

Additional observations from a re-analysis of the deposited data

How the results depend on the processing

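Under the alternatives, the number of Hox genes that rose at an adjusted p under 0.05 in limma was 0 throughout. The number that fell was 1 with the values as deposited (Hoxd1) and from 0 to 3 with 1 array left out, and 0 under the others. Hox genes more than 2-fold higher without overlap numbered 1 with a 40th percentile floor and 1 with a 60th percentile filter, and more than 2-fold lower also 1 under each. With 1 array left out these counts were 1 to 2 and 2 to 5. The median difference of the Hox genes ran from -0.19 to 0.12 with 1 array left out, within the spread of 0.28 between replicates. Listed genes past the threshold, 35 in all with the markers, were 0 without the filter and 0 by the methods' t-test after Benjamini and Hochberg, and 18 to 44 with 1 array left out. That t-test gave 3 Hox genes at an unadjusted p under 0.05 and 0 after adjustment. Same-numbered replicates deviated with a correlation of 0.166, from 2 pairs, which does not pair them. With the replicate block, 0 Hox genes passed (lowest adjusted p 0.0512, 6 at an unadjusted p under 0.05), and 1131 of all genes passed against 448 without it. That background count was 124 without KSP-negative replicate 2, 792 without KSP-positive replicate 2, and 0 without the filter and 0 by the t-test, and it ran from 326 to 638 under the other alternatives. Of the named differences, 18 alternative values had the opposite sign, all for genes that did not pass. Hoxa10 was -0.07 as deposited and -0.06 after quantile normalization, Hoxd10 was -0.02 as deposited, and Hoxb3 was -0.50 as the mean of its probe sets. With 1 array dropped, the differences ran from -0.68 (-0.30 without KSP-negative replicate 2) to 0.72 for Hoxa10, -0.02 to 0.66 for Hoxa11, -2.85 to 0.03 for Hoxb1, -1.11 to 0.12 (0.01 without KSP-positive replicate 1) for Hoxb2, -0.20 (-0.09 without KSP-negative replicate 1) to 0.39 for Hoxb3, -0.37 (-0.13 without KSP-positive replicate 2) to 0.65 for Hoxb4, -0.74 to 0.39 (0.38 without KSP-negative replicate 2) for Hoxb6, and -0.19 (-0.05 without KSP-negative replicate 2) to 0.32 for Hoxd10. Cdx2 and Otx2 missed the threshold with every probe set alone (0.0723 and 0.0632) and without the intensity trend (0.0596 and 0.0566), and Cdx2 after quantile normalization (0.0555). Cyp26a1, Cdx2 and Otx2 missed it without the filter (0.32, 0.357 and 0.385) and by the t-test (0.513, 0.513 and 0.543). The causes were not tested.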
